A study of Mus musculus with 2 samples.

Results

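The fibrillar collagen genes of mouse skin were described across the cells of 1 droplet single-cell RNA library. The members were chosen by name and are Col1a1, Col1a2, Col3a1, Col5a1, Col5a2, Col5a3, Col11a1, Col24a1 and Col27a1, 9 of the 32285 genes in the count matrix. All 9 were detected. The library was made from skin of C57BL/6 mice aged 8 weeks, dissociated with Liberase and DNase. It pooled cells of mice given anti-Ly6G antibody, clone 1A8, on 2 consecutive days to deplete neutrophils with cells of control mice, each marked by a hashtag antibody. The matrix names no condition for any barcode and the hashtag library was not used here, so depleted and control skin were not compared and each value describes the pool. With 1 library and no replicate, no test was possible, and every interval is a 95% interval for counting error alone.

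Fibrillar collagens are secreted as procollagens of 3 chains wound into a triple helix, which extracellular enzymes trim so that the helices can assemble into fibrils. Type I, of Col1a1 and Col1a2 chains, forms most of the fibril mass of the dermis together with type III, a homotrimer of Col3a1. Types V and XI are minor chains that sit within fibrils and limit their diameter, while types XXIV and XXVII are later-described relatives with a shorter helix. In skin these genes are known as products of dermal fibroblasts.

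The feature that the family shares at the level of sequence is a glycine codon repeated once in every 3 codons, since only glycine fits inside the triple helix. In the coding sequences of the GENCODE M21 transcripts, the longest unbroken run of units of 3 codons that open with GG was 338 units in Col1a1, 339 in Col1a2 and 344 in Col3a1. It was 338 in Col5a1, 339 in Col5a2, 337 in Col5a3 and 338 in Col11a1. Col24a1 and Col27a1 stood apart with 216 and 217 units, since their repeat is interrupted. Over all runs of at least 5 units they held 327 and 329 units, in 3 runs each. The other members held 353 to 360 units in this count. The first 10 units of this run, 90 bases on the coding strand, are shown for the 5 members that carry the results below, with the codon that opens each unit, a glycine codon, in capitals. Glycine codons at the other positions of a unit stay in lower case.
Col1a1: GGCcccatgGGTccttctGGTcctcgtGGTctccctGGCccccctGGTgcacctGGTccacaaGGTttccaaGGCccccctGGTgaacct
Col1a2: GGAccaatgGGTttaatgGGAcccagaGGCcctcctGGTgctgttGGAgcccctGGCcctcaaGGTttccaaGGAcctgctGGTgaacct
Col3a1: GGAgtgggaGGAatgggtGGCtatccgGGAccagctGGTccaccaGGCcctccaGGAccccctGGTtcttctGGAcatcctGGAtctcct
Col5a2: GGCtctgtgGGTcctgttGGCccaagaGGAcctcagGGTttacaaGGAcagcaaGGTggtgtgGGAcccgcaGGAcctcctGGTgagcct
Col27a1: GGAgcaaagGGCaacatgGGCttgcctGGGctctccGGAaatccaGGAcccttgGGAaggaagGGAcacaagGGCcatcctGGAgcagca

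On the mm10 build, Col1a1 lies on chromosome 11 (94936224 to 94953042, plus strand) and Col1a2 on chromosome 6 (4504814 to 4541544, plus strand). Col3a1 and Col5a2 are neighbours on chromosome 1, Col3a1 at 45311538 to 45349706 on the plus strand and Col5a2 at 45374321 to 45503282 on the minus strand. Col27a1 lies on chromosome 4 (63214004 to 63334991, plus strand).

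Levels were counted in UMIs, unique molecular identifiers that each stand for 1 captured RNA molecule. In all, 240 barcodes were removed for detecting under 200 genes or for a mitochondrial share above 20%, which left 8127 with a median of 9708 UMIs. Cell classes were set by marker lists that hold no collagen gene, and 7290 barcodes received a class. Of these, 3677 were fibroblast-like, 1325 keratinocyte-like, 1838 myeloid-like and 276 lymphoid-like. A further 405 barcodes matched several lists (median 14298 UMIs). Another 432 held fewer than 3 markers of the list they matched best and had no class (median 3009.5 UMIs). Endothelial-like (8), Schwann-like (6), B cell-like (2) and melanocyte-like (1) barcodes were too few to be described.

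Among barcodes with a class, fibroblast-like ones held nearly all of the fibrillar collagen RNA. They carried 99.5% of the member UMIs found in barcodes with a class, and the 9 genes together made up 1.31% of their UMIs. That is 555551 member UMIs, against 3000 in the other barcodes with a class. The 405 barcodes that matched several lists held a further 34776 and lie on neither side. The 99.5% and the folds below therefore hold only for barcodes that passed the gate. The summed level was 13089 CPM (UMIs per 1000000 UMIs of the class) in fibroblast-like barcodes and 89.5 CPM in all other barcodes with a class, a 146-fold difference (141 to 152). Of the 9 members, 8 were at least 2-fold higher in fibroblast-like barcodes and 0 at least 2-fold lower. Among the 15168 genes with enough UMIs to be measured, 19.9% were 2-fold higher and 24.4% were 2-fold lower. The median log2 fold over those genes was -0.15.

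The type I chains showed the widest gap. Col1a1 stood at 2580 CPM (2564 to 2595) in fibroblast-like barcodes, against 12.2 CPM (11.1 to 13.5) in the others, a fold of 211 (191 to 233). Col1a2, the partner chain, stood at 4430 CPM against 22.5 CPM in the others, 197-fold (184 to 212). Both were seen in nearly every fibroblast-like barcode, Col1a1 in 97.0% and Col1a2 in 98.1%. The ratio of Col1a1 to Col1a2 UMIs was 0.582 (0.578 to 0.587) in fibroblast-like barcodes, 0.578 (0.485 to 0.686) in macrophage-like and 0.535 (0.426 to 0.671) in keratinocyte-like barcodes. These intervals overlap, at Col1a1 levels of 2580 CPM in fibroblast-like, 15.6 CPM in macrophage-like and 8.79 CPM in keratinocyte-like barcodes. The ratio of Col1a1 to Col3a1 was 0.530 (0.526 to 0.534) in fibroblast-like barcodes and lower in macrophage-like ones, at 0.435 (0.369 to 0.513). The part of free RNA in the type I collagen UMIs outside fibroblast-like barcodes was not tested. An alternative that subtracted expected free RNA is described in the closing section and gave no fold for members left at 0.

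Col3a1, the type III chain, stood at 4869 CPM in fibroblast-like barcodes and at 31.3 CPM in the others, 155-fold (146 to 165). The type V chains followed the same split at lower folds for Col5a2. Col5a1 stood at 419 CPM against 4.03 CPM, 104-fold (87.8 to 124). Col5a3, the chain best known from adipose tissue and muscle, stood at 215 CPM against 2.15 CPM, 100.2-fold (79.5 to 128). Col5a2 stood at 564 CPM against 11.2 CPM, 50.3-fold (45.4 to 55.8), an interval below that of each of the other 2 type V chains.

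The remaining chains were sparse. Col11a1, a cartilage-associated chain, had 66 UMIs in fibroblast-like barcodes and 4 in the others (13-fold, 4.86 to 49.2). Col24a1, which is known from developing bone, had 70 and 5 UMIs (11.1-fold, 4.52 to 35.1). Col27a1 was the exception, with 8.91 CPM in fibroblast-like barcodes and 5.82 CPM in the others, only 1.53-fold (1.28 to 1.83). The 2 fibrillar chain genes outside the named members, Col2a1 and Col11a2, had 10 and 38 UMIs in all kept barcodes.

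Free RNA spreads through a droplet library, so shares of barcodes with a UMI were compared at an equal depth of 1000 UMIs per barcode, with keratinocyte-like barcodes as the class taken to lack these transcripts. At that depth Col3a1 was seen in 90.9% of 3668 fibroblast-like barcodes and in 2.13% of 1316 keratinocyte-like barcodes. Unthinned, Col3a1 was seen in 98.9% of fibroblast-like barcodes (median depth 11163 UMIs) and 17.8% of keratinocyte-like ones (10481 UMIs). Col1a1 was seen in 79.3% and 0.608% of thinned barcodes, and Col5a3 in 16.6% and 0.152%. Col11a1, Col24a1 and Col27a1 were each seen in under 1% of thinned fibroblast-like barcodes, 0.327%, 0% and 0.763%.

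**Figure D1:**
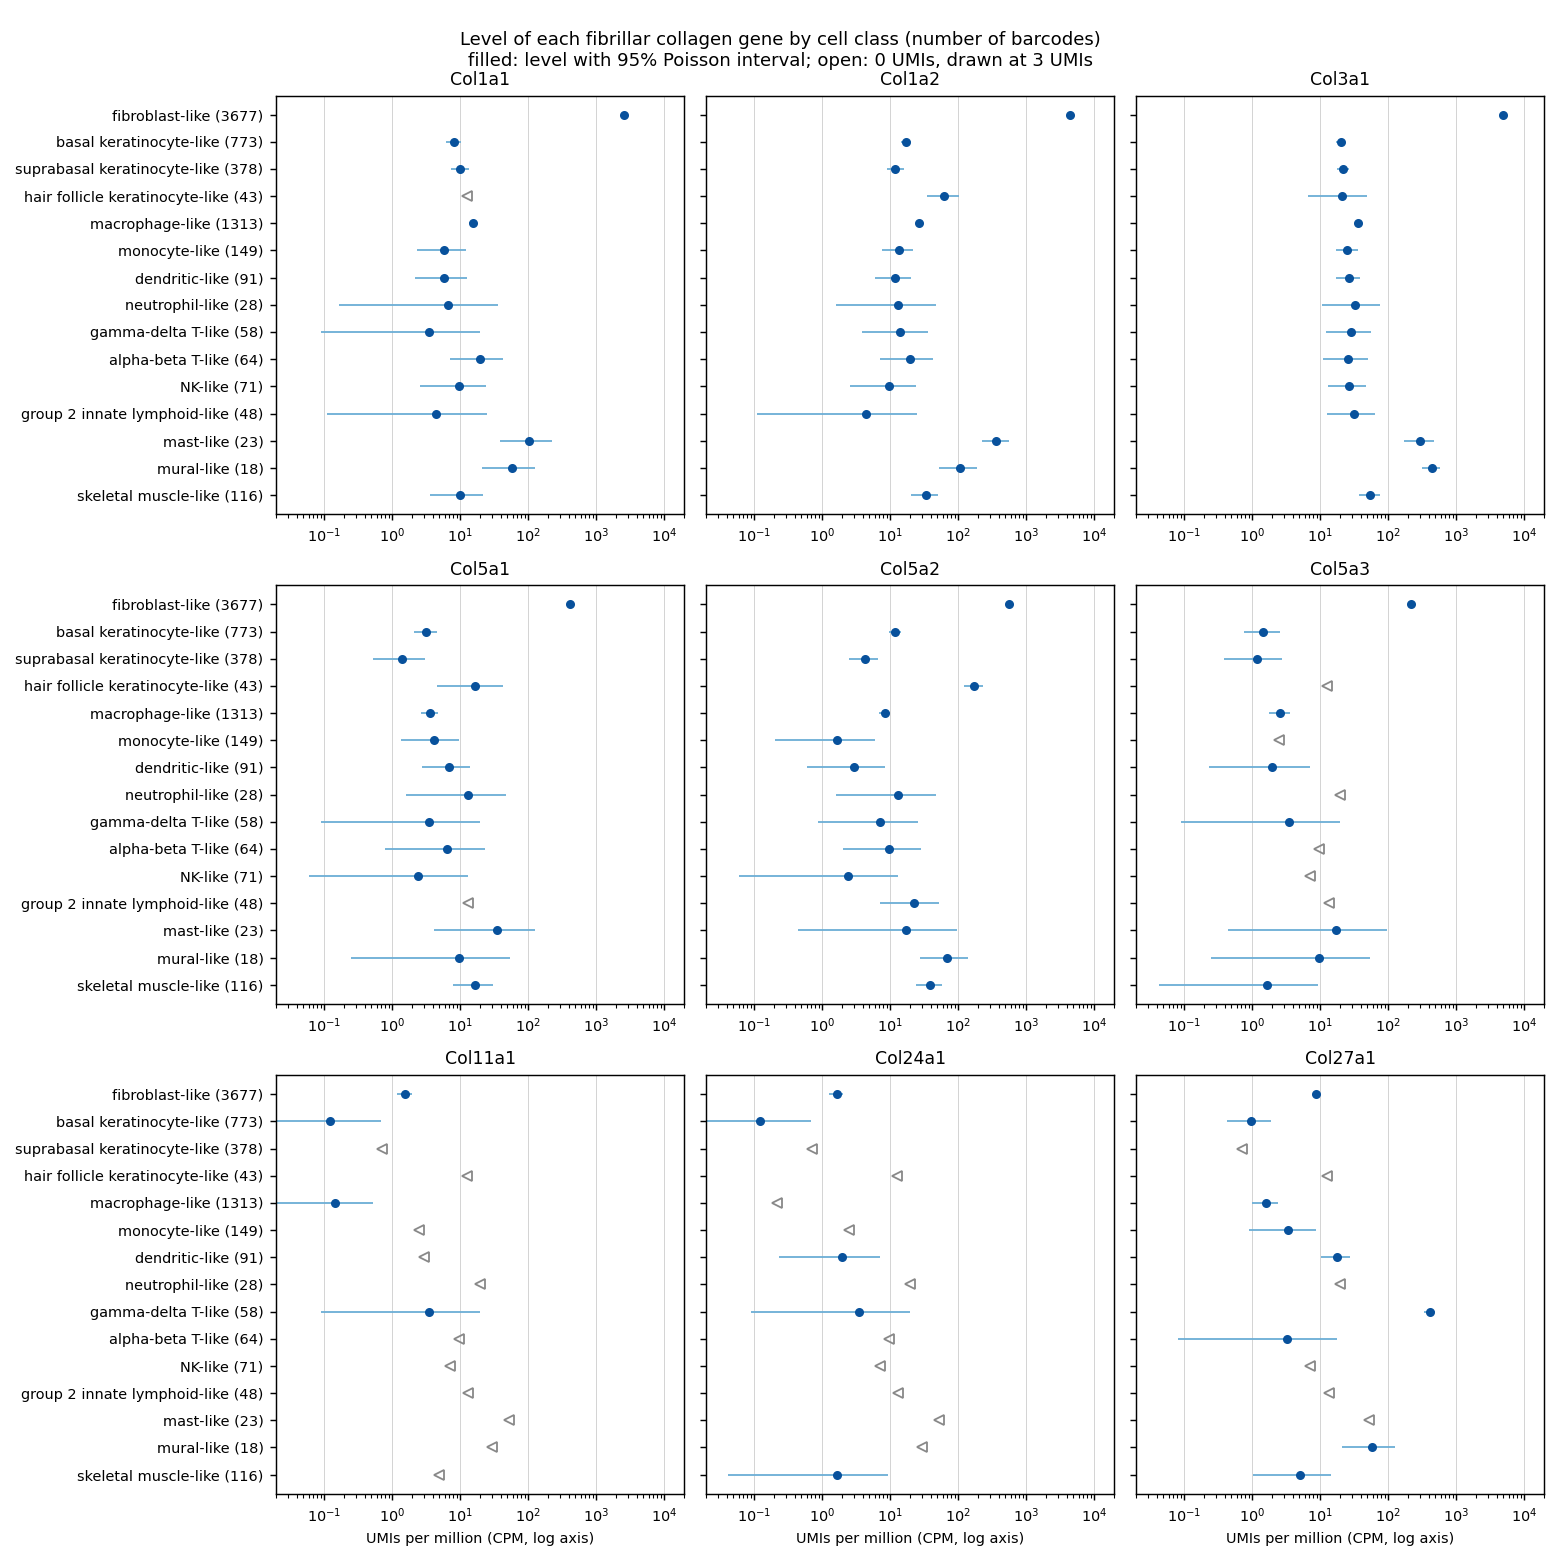
Level of each fibrillar collagen gene (CPM, log axis) in 15 cell classes, fibroblast-like at the top; filled points are levels with 95% Poisson intervals and open triangles mark 0 UMIs, drawn at the level of 3 UMIs. Col1a1 to Col5a3 peak in fibroblast-like barcodes, while Col27a1 peaks at 414 CPM in gamma-delta T-like barcodes.

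The order of the classes outside fibroblast-like barcodes differed between members. Col3a1 was next highest in mural-like barcodes, the contractile cells around vessels, with 45 UMIs or 440 CPM (321 to 588) from 12 of 18 barcodes. Mast-like barcodes followed for Col3a1 at 297 CPM (173 to 476), an interval that overlaps the mural-like one. Over the other 12 classes Col3a1 lay between 20.2 and 55.3 CPM. In mural-like barcodes the ratio of Col1a1 to Col3a1 was 0.133 (0.0465 to 0.314), against 0.530 in fibroblast-like barcodes. Of the 8 fibroblast markers, 6 were detected in mural-like barcodes at a summed 166 CPM.

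Mast-like barcodes had the second-highest Col1a2 level, 367 CPM (227 to 561), but from few cells. Of their 48 member UMIs, 35 came from 1 barcode of 4085 UMIs. Without it Col1a2 stood at 113 CPM (41.5 to 246) and Col3a1 at 75.3 CPM (20.5 to 193). Fibroblast markers summed to 1014 CPM in mast-like barcodes, the highest of the 14 classes that are not fibroblast-like, in which they ranged upward from 57.2 CPM. They summed to 18333 CPM in fibroblast-like barcodes. The part of these markers in the levels outside fibroblast-like barcodes was not tested.

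Col27a1 had its highest level in gamma-delta T-like barcodes, the T cells that in mouse epidermis include the dendritic epidermal T cells. These 58 barcodes held 116 Col27a1 UMIs, or 414 CPM (342 to 497). All other barcodes with a class stood at 6.04 CPM, a fold of 68.6 (55.5 to 84.3). They were 0.796% of the barcodes with a class and held 20.2% of their Col27a1 UMIs. The interval lies above that of each of the other 14 classes described.

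The signal was spread over cells. A Col27a1 UMI was found in 35 of 58 gamma-delta T-like barcodes, 60.3% (46.6 to 73.0), and 30 barcodes had 2 or more, with at most 8 in any one. Without that barcode the level was 393 CPM (323 to 475). After thinning, 31.0% (19.5 to 44.5) of gamma-delta T-like barcodes had a UMI, against 0.763% of fibroblast-like and 0.0760% of keratinocyte-like ones. The other lymphoid-like barcodes, 218 in number, held 3 Col27a1 UMIs or 2.76 CPM, so the fold within lymphoid-like cells was 150.3 (50.2 to 739). Col27a1 was the 1 member with enough UMIs to be measured in that comparison, beside 15.1% of 4116 genes at least 2-fold higher and 12.9% at least 2-fold lower. The median depth of gamma-delta T-like barcodes was 4897 UMIs.

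Against all other barcodes with a class, 3 members were at least 2-fold higher and 6 lower in gamma-delta T-like barcodes, beside 25.8% and 24.1% of 15168 genes. The other 2 higher members, Col11a1 and Col24a1, rest on 1 UMI each. Col1a1, Col5a1 and Col5a3 also had 1 UMI each in gamma-delta T-like barcodes, Col5a2 had 2, Col1a2 had 4 and Col3a1 had 8. The fibroblast markers summed to 57.2 CPM, the lowest of the 15 classes. Col27a1 thus made up 85.9% of the fibrillar collagen UMIs in gamma-delta T-like barcodes and 0.0680% in fibroblast-like barcodes. Of the 21 folding and hydroxylation genes 12 were at least 2-fold lower and 1 was 2-fold higher there than in other barcodes with a class, the prolyl hydroxylase subunit P4ha2 at 71.4 against 27.4 CPM (20 UMIs, 2.61-fold, 1.59 to 4.04). Serpinh1, the collagen-specific chaperone HSP47, had 1 UMI, 3.57 CPM, against 668 CPM in the others. Of the 21 genes, 7 had 0 UMIs on 1 side of this comparison, in which the other side includes the fibroblast-like barcodes. Against the other lymphoid-like barcodes, 5 folding and hydroxylation genes were measured, with 0 higher and 0 lower (median log2 fold 0.04). Over all 4116 genes measured there, 15.1% were higher and 12.9% lower.

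Within the gamma-delta T-like class, 2 further splits were made after the data had been seen. Both used genes that are themselves markers of this class. The 43 barcodes with a UMI of Trdv4, a variable segment of the delta chain, stood at 438 CPM (353 to 536), and the 15 without one at 340.4 CPM (216 to 511). These intervals overlap. The 16 barcodes with a UMI of Cd163l1, a marker of IL-17-producing gamma-delta cells, stood at 264 CPM (159 to 413), against 466 CPM (378 to 569) in the 42 without one, a fold of 0.567 (0.327 to 0.933). Both sides of each split were above the 17.7 CPM of the dendritic-like class.

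Smaller Col27a1 signals lay in mural-like and dendritic-like barcodes. Mural-like barcodes had 6 UMIs, 58.6 CPM (21.5 to 128), in 4 of 18 barcodes. Without the barcode that held 3 of them the level was 30.3 CPM (6.26 to 88.7), an interval that includes the 8.91 CPM of fibroblast-like barcodes. Dendritic-like barcodes had 18 UMIs, 17.7 CPM (10.5 to 27.9), in 10 of 91 barcodes, and 7 of these UMIs came from 1 barcode. Without it the level was 10.9 CPM (5.42 to 19.4), which overlaps the 8.91 CPM (8.03 to 9.85) of fibroblast-like barcodes. In a split made after the data had been seen, the 39 dendritic-like barcodes with a UMI of Ccr7, the receptor of migrating dendritic cells, stood at 33.3 CPM (18.7 to 55.0), and the 52 without one at 5.27 CPM (1.09 to 15.4). The barcode with 7 UMIs lies on the Ccr7 side, and without it that side stood at 18.0 CPM (7.77 to 35.5), an interval that overlaps the other. Suprabasal and hair follicle keratinocyte-like, neutrophil-like, NK-like, group 2 innate lymphoid-like and mast-like barcodes had 0 Col27a1 UMIs. In the smallest of these, the 23 mast-like barcodes, a count of 0 still allows up to 52.5 CPM.

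**Figure D2:**
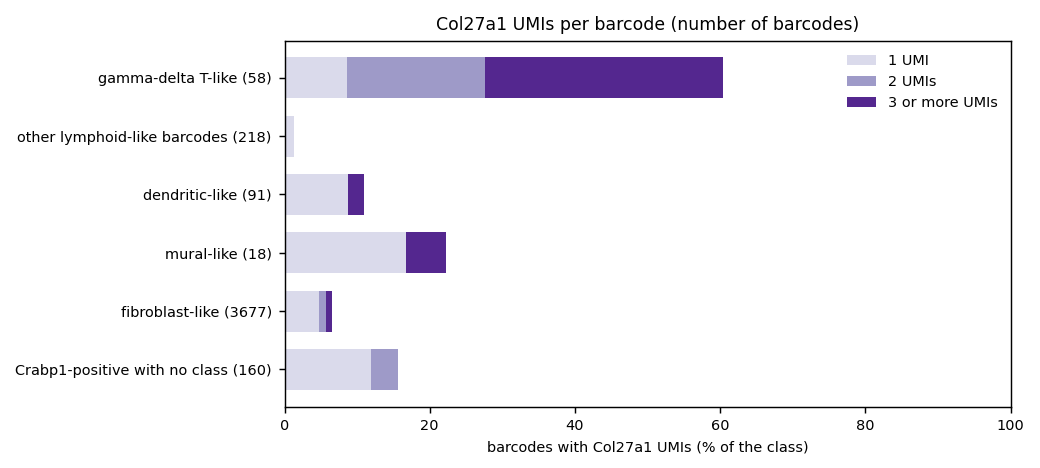
Share of barcodes (%) with 1, 2 or 3 or more Col27a1 UMIs in 6 groups, with the number of barcodes in brackets. In gamma-delta T-like barcodes 60.3% carry a UMI, against 1.38% of other lymphoid-like and 6.61% of fibroblast-like barcodes.

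Among the 14 classes that are not fibroblast-like, Col5a2 had its highest level in hair follicle keratinocyte-like barcodes. Mixed barcodes (233 CPM) and barcodes with no class (246 CPM) stood higher. The 43 hair follicle keratinocyte-like barcodes held 41 Col5a2 UMIs, 172 CPM (123 to 233), found in 16 barcodes with at most 11 in one. Without that barcode the level was 132 CPM (89.2 to 189). Mural-like barcodes followed at 68.4 CPM from 7 UMIs (27.5 to 141). Their interval overlaps both, so the order of these classes is not settled. After thinning to 1000 UMIs, 2 of 43 barcodes had a Col5a2 UMI, 4.65% (0.568 to 15.8), which overlaps the 1.22% (0.696 to 1.97) of all keratinocyte-like barcodes. The other keratinocyte-like barcodes stood at 10.7 CPM, a fold of 16.0 (11.0 to 22.8). Among the 10390 genes measured in this comparison 18.1% were at least 2-fold higher and 14.6% at least 2-fold lower, and of the 4 members measured Col5a2 and Col1a2 were higher, Col3a1 was within the limit and Col1a1, at 0 UMIs, counted as lower.

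Col1a2 had 15 UMIs in hair follicle keratinocyte-like barcodes, 62.8 CPM (35.2 to 104), 4.03-fold (2.21 to 6.79) over the other keratinocyte-like barcodes. Col3a1 had 5 UMIs (1.01-fold, 0.326 to 2.39), an interval that passes the 2-fold limit on both sides, so a difference is not settled. Col1a1 had 0 UMIs, which allows up to 12.6 CPM, above the 8.95 CPM of the other keratinocyte-like barcodes, so a difference in Col1a1 was not detectable at this depth. Col5a2 therefore made up 63.1% (50.2 to 74.7) of the member UMIs there and 4.31% in fibroblast-like barcodes. Fibroblast markers summed to 235 CPM in hair follicle keratinocyte-like barcodes, against 77.6 CPM in basal and 65.1 CPM in suprabasal ones. Their part in the Col1a2 level was not tested.

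Keratinocyte-like barcodes were also split by Lhx2, Sox9 and Postn, after the data had been seen. These are 3 of the 7 markers of the hair follicle keratinocyte class, so the split is not independent of that class. Keratinocyte-like barcodes with a UMI of at least 2 of Lhx2, Sox9 and Postn numbered 147 and held 116 Col5a2 UMIs, 107 CPM (88.3 to 128), in 47 barcodes. The 1024 barcodes with none of the 3 genes held 21, or 1.89 CPM (1.17 to 2.88), a fold of 56.7 (35.4 to 95). Lhx2 and Sox9 encode transcription factors of hair follicle progenitors, and Postn encodes a matrix protein. In the same split Col1a1 was 0.780-fold (0.305 to 1.67), Col3a1 1.29-fold (0.833 to 1.94) and Col1a2 2.73-fold (1.85 to 3.92). The median depth was 6647 UMIs in the first group and 10949.5 UMIs in the second.

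Skeletal muscle-like barcodes held 23 Col5a2 UMIs, 38.6 CPM (24.5 to 57.9). Of these, 11 came from 1 barcode, and without it the level was 20.2 CPM (10.4 to 35.3). Macrophage-like barcodes, the most numerous class after fibroblast-like ones, stood at 8.38 CPM (6.91 to 10.1).

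**Figure D3:**
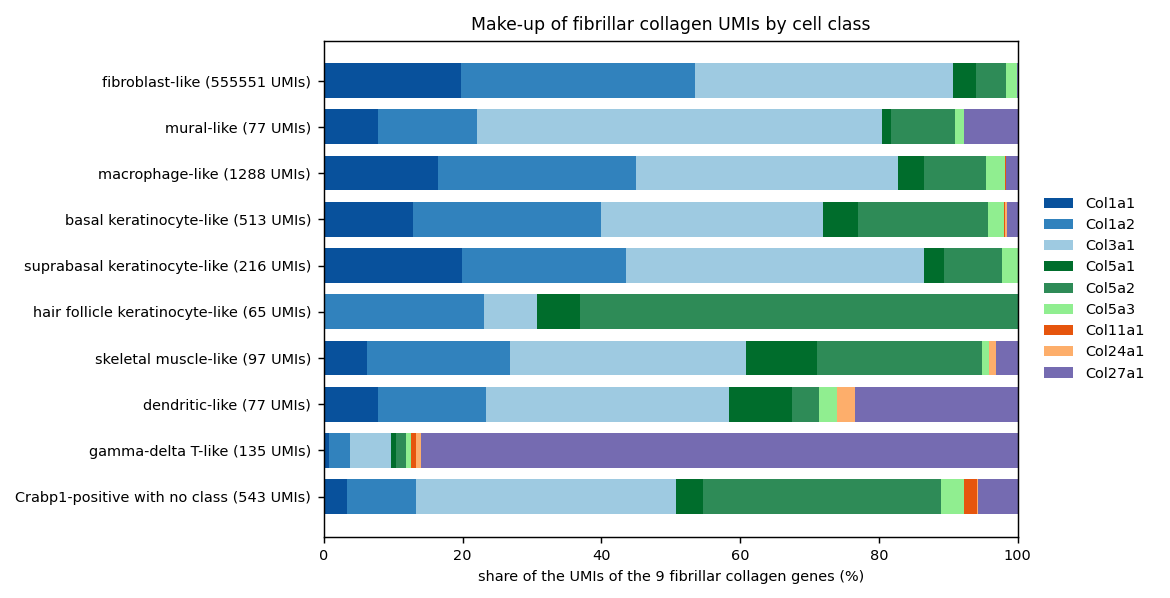
Share of each gene in the UMIs of the 9 fibrillar collagen genes (%), by class, with the number of those UMIs in brackets. Col27a1 fills 85.9% of the bar of gamma-delta T-like barcodes and Col5a2 fills 63.1% of that of hair follicle keratinocyte-like barcodes, against 0.0680% and 4.31% in fibroblast-like barcodes.

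The genes that make, trim and bind fibrils were set beside the members in the same comparison of fibroblast-like with other barcodes, in which 19.9% of all genes were higher and 24.4% lower. All 6 measured crosslinking genes were 2-fold higher (median log2 fold 6.03), among them the lysyl oxidases Lox (137-fold) and Loxl1 (134-fold). Of the procollagen processing genes 6 of 8 were higher and 0 lower (median 4.78). Pcolce2, an enhancer of C-propeptide removal, was 193-fold higher (162 to 233) and Adamts2, the N-propeptidase, 114-fold, whereas Adamts3 reached 1.94-fold and Adamts14 1.18-fold. Of 12 fibril-binding genes 11 were higher (median 5.26), with Ogn at 233-fold and Col14a1 at 128-fold, and Fn1, encoding fibronectin, at 1.77-fold.

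Folding and hydroxylation genes were less uniform, with 15 of 21 higher and 1 lower (median 2.08). Fkbp14 and Fkbp10, prolyl isomerases of the endoplasmic reticulum, were 69.3-fold and 52.5-fold higher, and the prolyl 3-hydroxylase P3h2 was 0.0167-fold (54 UMIs against 2554). Of 9 collagen receptors 4 were higher and 3 lower (median 0.33), the lower count being near the 24.4% over all genes. Itga11 (67.3-fold) and Ddr2 (65.8-fold), the receptors for fibrillar collagen on mesenchymal cells, were higher, while the epithelial Ddr1 (0.182-fold) and the leukocyte Lair1 (0.0100-fold, 3 UMIs against 237) were lower. Of 5 collagen-cleaving enzymes 4 were higher, led by Ctsk (85.1-fold) and Mmp2 (74.3-fold), and Mmp9 was 0.0401-fold.

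Over the 15 classes, the gene most like each member was sought among 12388 genes by Pearson's r of log2(CPM + 1). These points share 1 library, and classes with few UMIs weigh as much as large ones, so r is a description. Col1a1 was most like Adgrd1 (r = 0.93), Col1a2 most like Dcn (r = 0.94) and Col3a1 most like Gpx3 (r = 0.96). Dcn is itself a marker of the fibroblast gate, so its profile over the classes is partly set by that gate. Col5a1 was nearest to Igfbp6 (r = 0.91), Col5a3 to Ogn (r = 0.95) and Col5a2 to Angptl2 (r = 0.90). Col27a1 was nearest to Stac2 (r = 0.88), followed by Fads3 and Sgsh. Of the 14 classes that are not fibroblast-like, 11 had 0 UMIs of Col11a1 and 10 had 0 of Col24a1, so no neighbour is given for them. Col5a3 and Col27a1 each had 0 UMIs in 6 of the 14, which limits their values too.

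Among the fibroblast-like barcodes themselves the summed level varied widely, with a median of 10520 CPM, a 5% to 95% range of 3276 to 29816 CPM and a maximum of 194936 CPM. Only 4 of 3677 barcodes had no member UMI. Levels of Col1a1 and Col1a2 moved together across barcodes (Spearman's rho 0.78 unthinned, 0.46 after thinning to 1000 UMIs), as did Col1a1 and Col3a1 (0.71 and 0.45). Pairs of type I or III genes with a type V gene were weaker, between 0.24 and 0.46 unthinned, and 0.06 and 0.16 after thinning. These are descriptions over cells of 1 library that share depth.

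Level and depth were not independent for all members. With the fibroblast-like barcodes cut into 3 equal groups by depth, Col1a1 stood at 3333 CPM in the shallowest, 2578 CPM in the middle and 2345 CPM in the deepest group. Col3a1 ran the other way, at 4445, 4765 and 5067 CPM. Of the 66 Col11a1 UMIs, 38 lay in the shallowest group.

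The fibroblast-like barcodes were then split by 6 genes that had led clusters in an earlier analysis of the same cells. These are Crabp1 (a retinoic acid-binding protein), Cilp (a matrix protein of cartilage), Cyp2f2 (a cytochrome P450), Cxcl13 (a chemokine), Rasgef1c (an exchange factor for small GTPases) and Nova1 (a splicing regulator). Since those clusters used every gene of these cells, the subsets are described and not tested. A barcode was positive with at least 2 UMIs of the gene. The numbers of positive barcodes were 112 for Crabp1, 609 for Cilp, 305 for Cyp2f2, 2280 for Cxcl13, 169 for Rasgef1c and 2436 for Nova1, and 2204 were positive for several. At most 0.377% of keratinocyte-like barcodes were positive for any one of the 6 genes.

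Barcodes positive for exactly 1 gene were set against the 342 positive for none, with 7 members measured in each comparison and a fold of 1.5 as the limit. The median depth of those 342 barcodes was 5372.5 UMIs. In a second comparison, chosen after the data had been seen, all positive barcodes were set against the other fibroblast-like barcodes. Only 2 barcodes were positive for Rasgef1c alone, so that subset has the second comparison only.

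**Figure D4:**
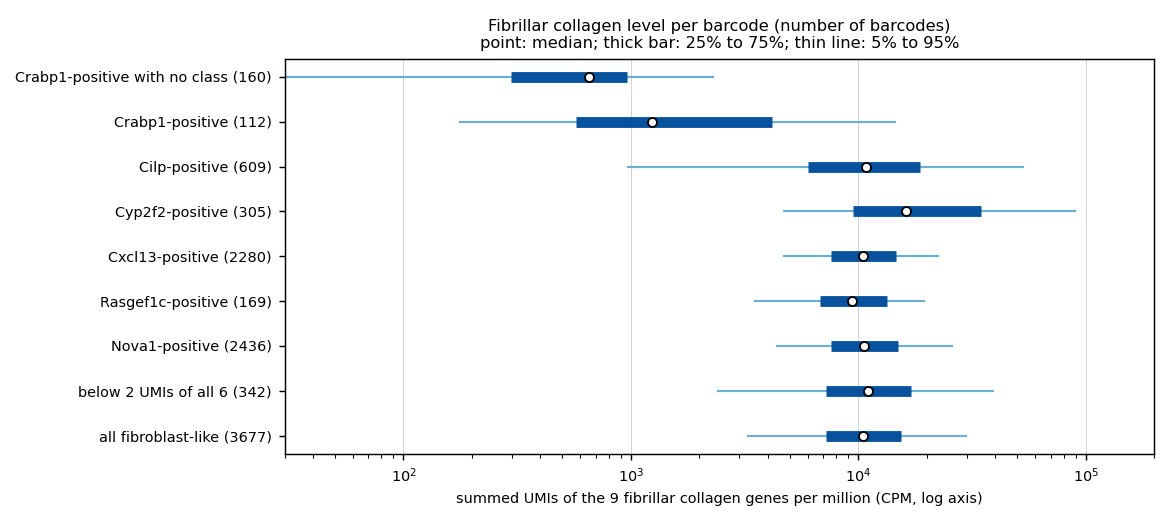
Summed level of the 9 fibrillar collagen genes per barcode (CPM, log axis) in Crabp1-positive barcodes with no class, in the 6 overlapping fibroblast-like subsets, in fibroblast-like barcodes below 2 UMIs of all 6 genes and in all fibroblast-like barcodes; points are medians, thick bars the interquartile range and thin lines the 5% to 95% range, which begins at 0, off the axis, in the first group. Medians run from 654 CPM in Crabp1-positive barcodes with no class to 16194 CPM in Cyp2f2-positive barcodes.

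Cyp2f2-positive barcodes had the highest type I collagen levels. In the 61 barcodes positive for Cyp2f2 alone, Col1a1 stood at 11636 CPM (11306 to 11974), against 3375 CPM (3298 to 3453) in the barcodes positive for none, a fold of 3.45 (3.32 to 3.58). Col1a2 stood at 14939 CPM against 5065 CPM, 2.95-fold (2.86 to 3.04). Col3a1 was 1.39-fold (1.34 to 1.44) and Col5a2 1.42-fold (1.24 to 1.61), both inside the limit. Of the 7 measured members 2 were higher and 2 lower, where 14.4% of 6314 genes were higher and 17.7% lower, with a median log2 fold of -0.07.

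The 2 lower members were Col5a3, at 121 against 325 CPM (0.373-fold, 0.274 to 0.499), and Col27a1, with 2 UMIs against 55 (0.196-fold, 0.0231 to 0.741). Type I thus outweighed type III in this subset more than elsewhere. The ratio of Col1a1 to Col3a1 was 1.39 (1.33 to 1.46) in barcodes positive for Cyp2f2 alone and 0.562 (0.546 to 0.578) in those positive for none. That of Col1a1 to Col1a2 was 0.779 (0.750 to 0.809) against 0.666 (0.647 to 0.686). Over all 305 Cyp2f2-positive barcodes the folds against the other fibroblast-like barcodes were 3.16 (3.11 to 3.21) for Col1a1 and 2.71 (2.68 to 2.74) for Col1a2. In that comparison 2 members were higher and 4 lower, beside 11.2% and 12.7% of 12748 genes. Of the lower ones Col24a1 rests on 1 UMI, with an interval of 0.00478 to 1.10 that includes 1.

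The other genes of collagen making were set beside the members in the same comparison of barcodes positive for Cyp2f2 alone. Of 18 folding and hydroxylation genes 2 were higher and 2 lower (median log2 fold -0.01), shares no larger than the 14.4% and 17.7% over all genes. The lower ones were Plod1 (0.485-fold) and Plod2 (0.219-fold), which encode lysyl hydroxylases. Adamts2 (1.81-fold) and Pcolce2 (1.80-fold) were the 2 of 5 processing genes that were higher. Of 5 crosslinking genes 1 was higher and 2 lower (median -0.54). Lox was 1.86-fold higher, and the transglutaminase Tgm2 had 1 UMI against 194 (0.0277-fold). Of 4 collagen-cleaving genes 2 were higher and 1 lower (median 0.29), with Ctsk, encoding cathepsin K, 3.18-fold higher (2.85 to 3.55). Of 11 fibril-binding genes 3 were higher and 3 lower (-0.18), and of 4 collagen receptors 0 were higher and 1 lower (-0.11).

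Crabp1-positive barcodes had the lowest levels. In the 44 fibroblast-like barcodes positive for Crabp1 alone, all 7 measured members were lower than in the barcodes positive for none, where 25.7% of 6277 genes were lower and 30.4% higher (median log2 fold 0.08). Col1a1 stood at 639 CPM against 3375 CPM (0.189-fold, 0.162 to 0.221) and Col3a1 at 917 against 6006 CPM (0.153-fold, 0.134 to 0.174). Col1a2 was 0.240-fold, Col5a1 0.198-fold and Col5a3 0.117-fold. Col5a2 was the least reduced, at 316 against 518 CPM (0.610-fold, 0.482 to 0.763). Col27a1 had 1 UMI against 55. These are pooled levels. The summed level of the members in the 44 barcodes was 3270 CPM pooled, with a median of 790 CPM per barcode. In the barcodes positive for none it was 15803 CPM pooled, with a median of 11059 CPM.

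Over all 112 Crabp1-positive fibroblast-like barcodes 6 members were lower and 2 higher than in the other 3565, beside 21.1% and 31.1% of 12748 genes. Col1a1 was 0.305-fold (0.284 to 0.326) and Col5a2 0.729-fold (0.662 to 0.802). The higher ones were Col11a1, with 19 of the class's 66 UMIs (15.9-fold, 8.79 to 27.5), and Col27a1, with 30 UMIs (3.38-fold, 2.25 to 4.91). The direction for Col27a1 therefore differed between the 2 comparisons. Of the 6 lower members Col24a1 had 0 UMIs, which allows up to 2.84 CPM against 1.69 CPM in the others, so its difference was not detectable at this depth. Col1a1 was uneven over the 112 barcodes, with a median of 0 CPM per barcode and a 95% quantile of 2832 CPM. In all fibroblast-like barcodes these values were 1890 and 6813 CPM.

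More Crabp1-positive barcodes had no class than were fibroblast-like, 160 against 112. These 160 had a median of 4388.5 UMIs, and 96.3% carried a UMI of Dkk2, a secreted Wnt modulator, against 16.9% of fibroblast-like barcodes. All 8 fibroblast markers were detected in them, at a summed 598 CPM. Pdgfra stood at 242 CPM in them and at 361 CPM in fibroblast-like barcodes, while Dcn, encoding decorin, stood at 59.2 against 10400 CPM and Lum at 2.75 against 1123 CPM. These 3 genes are markers of the fibroblast gate, so the low Dcn and Lum levels in barcodes that did not pass it follow from the selection. The barcodes were described after the data had been seen and are given no cell type name.

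Fibrillar collagen in these 160 barcodes was low and differently composed, which is described for barcodes selected by few fibroblast markers and cannot be told apart from that selection. Col1a1 stood at 24.8 CPM, against 2625 CPM in the fibroblast-like barcodes below 2 Crabp1 UMIs, a fold of 0.00944 (0.00559 to 0.0149). Col1a2 was 0.0165-fold (0.0124 to 0.0215) and Col3a1 0.0567-fold (0.0492 to 0.0651), at 281 against 4950 CPM. Col5a2 was lower by far less, at 256 against 568 CPM (0.451-fold, 0.388 to 0.521), and made up 34.3% (30.3 to 38.4) of their member UMIs.

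The 2 members that were higher in the 160 barcodes were again the sparse ones. Col11a1 had 10 UMIs, 13.8 against 1.14 CPM (12.1-fold, 5.46 to 24.3), and Col27a1 had 31 UMIs, 42.7 against 8.41 CPM (5.08-fold, 3.40 to 7.34). Col27a1 was seen in 25 of 160 barcodes. In this comparison 6 of 9 members were lower and 2 higher, beside 27.1% and 36.1% of 12739 genes. The ratio of Col1a1 to Col3a1 UMIs was 0.0882 (0.0513 to 0.143), against 0.530 in all fibroblast-like barcodes.

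In the 160 barcodes the lists of genes around the fibril differed, which cannot be told apart from their selection by few fibroblast markers. Of all 12739 genes measured 27.1% were lower and 36.1% higher. Lower were 14 of 20 folding genes (median log2 fold -1.25), 6 of 7 processing genes (-1.87) and 6 of 6 crosslinking genes (-3.35), and 0 of these were higher. Of 12 fibril-binding genes 9 were lower and 2 higher (-4.05). The 2 higher ones were Aspn, which encodes the small leucine-rich proteoglycan asporin (1378 against 193 CPM, 7.14-fold, 6.68 to 7.63), and Fmod, encoding fibromodulin (4.75-fold from 6 UMIs). Collagen-cleaving enzymes had 3 of 4 lower and 1 higher (-2.38). Collagen receptors had 3 of 8 lower and 3 higher (0.02), the higher count being near the 36.1% over all genes. Among the receptors Itga1, a collagen-binding integrin subunit, was 8.25-fold higher (6.26 to 10.7).

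Col11a1 in fibroblast-like barcodes was concentrated in few cells. It was seen in 36 barcodes, with at most 5 UMIs in one. Cilp-positive barcodes held 37 of the 66 UMIs, 7.30-fold (4.37 to 12.3) over the other fibroblast-like barcodes. In a split made after the data had been seen, the 661 barcodes positive for Cilp or Crabp1 held 49 UMIs, 7.29 CPM (5.39 to 9.64), and the other 3016 held 17, 0.476 CPM (0.277 to 0.762). Cxcl13-positive barcodes held 6 UMIs against 60 in the other fibroblast-like barcodes, and Nova1-positive barcodes held 2 against 64.

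In barcodes positive for Cilp alone, 0 of 7 measured members were higher and 0 lower than in those positive for none, beside 16.9% and 9.48% of 7376 genes. Col1a1 was 0.876-fold (0.841 to 0.912), Col3a1 0.801-fold (0.776 to 0.826) and Col5a2 1.32-fold (1.21 to 1.45). Over all 609 Cilp-positive barcodes 4 of 9 members were higher and 0 lower than in the other fibroblast-like barcodes, beside 13.7% and 7.76% of genes. Col1a1 stood there at 3628 against 2397 CPM (1.51-fold, 1.49 to 1.54), close to the limit, and the interval of Col24a1 (1.70-fold, 0.906 to 3.01) includes 1. Of the Cyp2f2-positive barcodes, 146 were also Cilp-positive.

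Cxcl13-positive and Nova1-positive barcodes, which overlapped in 1779 barcodes, had median summed levels of 10486 and 10534 CPM per barcode, beside 10520 CPM in the class. In the 442 barcodes positive for Cxcl13 alone 1 of 7 members was lower and 0 higher, beside 15.5% and 3.25% of 8760 genes (median log2 fold -0.12). That member was Col27a1, at 4.32 against 25.3 CPM (0.171-fold, 0.0943 to 0.295). Col1a1 was 0.724-fold (0.702 to 0.746). In the 404 barcodes positive for Nova1 alone the lower member was again Col27a1 (0.408-fold, 0.271 to 0.614), and 0 members were higher, beside 7.04% and 11% of 9150 genes. Col1a1 was 0.709-fold (0.688 to 0.730) and Col5a1 0.936-fold (0.869 to 1.01).

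Against the other fibroblast-like barcodes, all Cxcl13-positive barcodes had 3 members lower and 0 higher, beside 12.6% and 3.48% of genes. Those were Col1a1 (2155 against 3627 CPM, 0.594-fold, 0.587 to 0.601), Col11a1 and Col27a1 (0.437-fold). Nova1-positive barcodes had 2 lower, Col11a1 and Col27a1 (0.589-fold), beside 8.37% of genes, and 0 higher, beside 10.2%. Rasgef1c-positive barcodes had 1 member counted as lower and 0 higher, beside 10.8% and 12.2% of genes. The lower one, Col11a1, had 0 UMIs, which allows up to 1.22 CPM against 1.65 CPM in the others (0.738-fold), inside the limit. The other 8 members were between 0.727-fold (Col24a1, 3 UMIs) and 1.45-fold (Col27a1, 0.971 to 2.10) in Rasgef1c-positive barcodes. Cxcl13-positive and Nova1-positive barcodes were deeper (medians 12870.5 and 12978.5 UMIs) than Crabp1-positive and Cyp2f2-positive ones (6199 and 8855 UMIs), and the part of depth in these folds was not tested.

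**Figure D5:**
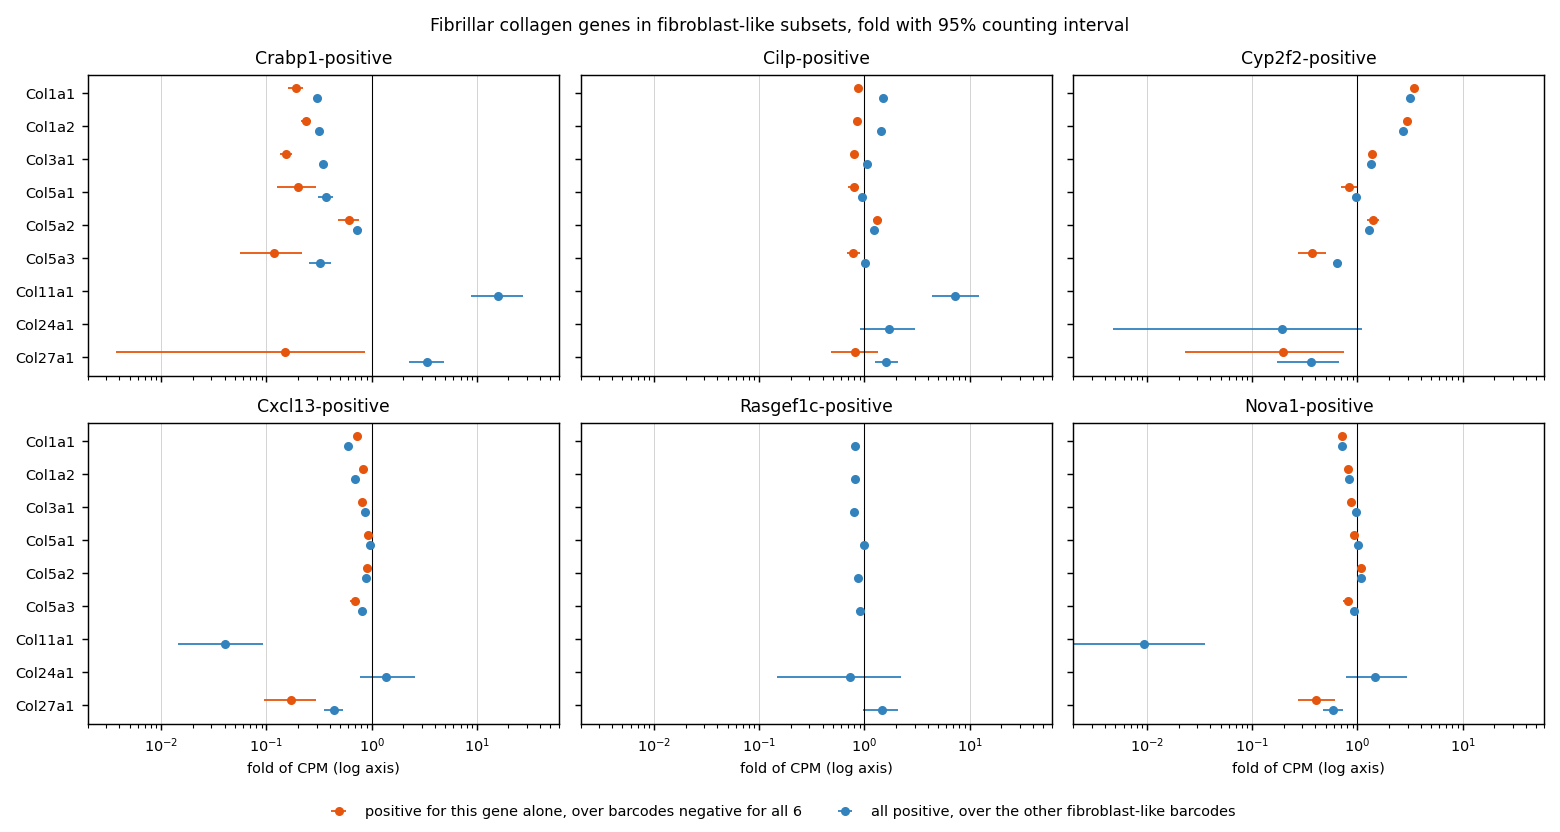
Fold of each fibrillar collagen gene (log axis) in 6 fibroblast-like subsets with its 95% counting interval: orange, barcodes positive for that gene alone over barcodes negative for all 6; blue, all positive barcodes over the other fibroblast-like barcodes. Points need at least 50 UMIs in all and a UMI on both sides; Cyp2f2-positive barcodes lie above 1 for Col1a1 (3.45 and 3.16), and Crabp1-positive barcodes lie below 1 for Col1a1 (0.189 and 0.305).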

How the data were processed

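The members, gene lists and subset genes were chosen with earlier results of these data known. The matrix holds raw counts, whole UMI counts per gene and barcode, deposited by the authors. They were made with Cell Ranger on mm10, per the submitters' processing notes, and the version and cell calling are not given in the sources used here. It held 8367 barcodes with 83725065 UMIs, and 0 columns of other samples.

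Barcodes with at least 200 genes and at most 20% mt- UMIs were kept. A barcode took the class of the marker list of which it held the largest share, with at least 3 of its markers, when no other list reached 50% of that share at 2 UMIs. Doublets (305 called by scrublet in Scanpy 1.11.5, expected rate 6%) were kept in the main values. UMIs were summed per class without further normalization than division by the class total. Levels have exact Poisson intervals, folds exact conditional intervals and shares Clopper-Pearson intervals, all at 95%. A level of 0 UMIs has an upper limit of 3 UMIs. A fold was read only from 50 UMIs in both groups together, and a class described only from 15 barcodes. The limit for a higher or lower gene was 2-fold between classes and 1.5-fold between fibroblast-like subsets, with no p-value. All 9 members are named; list genes are the 2 highest and 2 lowest folds of each list, and likeness partners the 3 with the highest r. Fold and interval calculations were tested on simulated counts. The computations ran in Python 3.11.15 with NumPy 2.4.6, SciPy 1.17.1 and pandas 2.3.3, and plots were drawn with matplotlib 3.10.9. Coding sequences and positions are from GENCODE M21 on mm10. Alternatives changed, 1 at a time, the gene and mitochondrial limits, the doublets, the gate (marker detection and purity), the weight of barcodes, deep barcodes, free RNA and the definition of subsets. Splits by Trdv4, Cd163l1, Ccr7, and Lhx2, Sox9 and Postn, the Crabp1-positive barcodes with no class, the overlapping subsets and the values without the top barcode were chosen after values were seen. The hashtag library was not used here.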

Additional observations from a re-analysis of the deposited data

How the results depend on the processing

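No paired analysis was possible because the matrix is 1 library with no replicates. Under 12 alternatives, and 1 chosen after the data had been seen (all positive barcodes against the other fibroblast-like barcodes), the count of members 2-fold higher in fibroblast-like barcodes stayed between 7 and 9. Col27a1 remained the 1 member whose highest level lay elsewhere in a class that held at least 10 of its UMIs. In the main values Col11a1 and Col24a1 were also highest in gamma-delta T-like barcodes, at 3.57 CPM from 1 UMI each, with intervals that overlap those of fibroblast-like barcodes. Subset counts are small and moved more often. In Crabp1-positive barcodes 0 higher members became 1 with 2 or more leading genes per subset and 2 in the comparison with other fibroblast-like barcodes, and in Cilp-positive barcodes 0 became 1 and 4. Lower members of Cilp-positive barcodes went up to 1 with a stricter gate, 3 with positivity at 1 UMI, 2 with barcodes of several subsets kept, and 1 with leading genes. For Cyp2f2-positive barcodes 2 higher became 4 with equal weight per barcode and 4 with leading genes, and 2 lower became 1 with markers at 2 UMIs, 1 with positivity at 1 UMI and 4 against the other fibroblast-like barcodes. For Cxcl13-positive barcodes 1 lower became 0 at 1 UMI, 3 at 3 UMIs, 3 with several subsets kept, 2 with leading genes and 3 against the others, and for Nova1-positive barcodes 1 became 2 under each of the last 4. Col27a1 in Crabp1-positive barcodes, 0.150-fold from 1 UMI, turned to 1.12 with several subsets kept, 1.34 with leading genes and 3.38 against the others, and the cause was not tested. The Col1a1 fold in Cyp2f2-positive barcodes ranged from 2.10 to 3.72 and in Crabp1-positive ones from 0.134 to 0.375. The Col27a1 fold of gamma-delta T-like barcodes ranged from 64.0 to 983. Subtraction of expected free RNA (1.68% of UMIs in fibroblast-like barcodes) left some members at 0 outside fibroblast-like barcodes, so no fold was given there. Over the single-gene values 371 stayed, 146 moved and 3 reversed. Counts of Col11a1 and Col24a1, 66 and 70 UMIs in fibroblast-like barcodes, limit every statement on them.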
